A study of Macaca mulatta with 38 samples.

Results

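Monocyte (Mono) and granulocyte (Gr) barcode libraries were compared on the 7 days on which both were sampled from 1 rhesus macaque, ZL34. These are 14 of the 38 libraries of the series, chosen by the cell type and day in their labels, on days 32, 119, 187, 266, 365, 494 and 553. The animal was a male of 4 years whose CD34+ blood stem and progenitor cells were mobilised with G-CSF and AMD1300, transduced at an MOI of 25 with a lentivirus library of barcodes, and returned after TBI. It was given cidofovir at 5 mg/kg every week, and every library compared here therefore shares the transduction, the conditioning and the drug. There is 1 library per lineage and day, from blood DNA, and no untransduced or control animal enters the comparison. The spread over days is a spread over 1 animal's history and not over biological replicates. Marker RNA or protein was not analysed here, so the purity of the labelled cell types was not checked.

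Monocytes and granulocytes are the circulating products of the myeloid branch of blood formation and have a common precursor in the marrow, the granulocyte-monocyte progenitor. Both are short-lived in blood and are replaced all the time, so the barcodes found in them on a given day follow the precursors that were then producing cells. A lentiviral barcode is written into the genome once and passes to all descendants of that cell. A cell transduced more than once carries several barcodes, which then keep to the same clone.

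A barcode's share is its percent of the reads in its library. Barcodes are numbered by mean share over the 38 libraries, so bc1 is the most abundant. Barcodes whose shares moved together over the 38 libraries were placed in groups (r of at least 0.95 between all pairs), and a group is used here as a description, since whether its barcodes lay in the same cells was not tested. The sequences below are those of the barcodes that held the most reads in these lineages. The barcodes bc1 to bc6 form group 1, bc7 to bc10 form group 2, and bc11 belongs to no group. Capitals mark the variable part, between the shared start and the adapter, as read in the deposited table.
bc1: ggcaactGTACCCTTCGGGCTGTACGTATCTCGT
bc2: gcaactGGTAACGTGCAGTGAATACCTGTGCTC
bc3: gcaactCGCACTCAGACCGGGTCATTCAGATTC
bc4: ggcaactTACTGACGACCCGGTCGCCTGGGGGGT
bc5: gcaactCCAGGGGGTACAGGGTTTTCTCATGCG
bc6: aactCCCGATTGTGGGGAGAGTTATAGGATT
bc7: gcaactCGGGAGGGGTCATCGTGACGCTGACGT
bc8: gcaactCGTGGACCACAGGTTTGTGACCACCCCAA
bc9: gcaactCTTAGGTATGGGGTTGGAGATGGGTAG
bc10: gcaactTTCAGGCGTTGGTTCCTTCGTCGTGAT
bc11: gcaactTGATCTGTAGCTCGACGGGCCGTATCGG

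Barcodes that moved together did not resemble each other in sequence. The variable parts of the 6 barcodes of group 1 were 13 to 19 edits apart over their 15 pairs (median 17), beside 10 to 22 edits (median 16) over all 1275 pairs of the 51 barcodes that reached 1% in some library. No pair of whole 50-base sequences in the table differed by a single substitution, and the 43261 variable parts that could be marked were all distinct. Near matches between variable parts were not searched for over the whole table.

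The 14 libraries held between 1438491 reads (Gr, day 32) and 3805440 reads (Gr, day 494) on listed barcodes, and 20247 of the 44423 sequences of the table were listed in at least 1 of them. The lowest count above 0 in the table was 101, so a listed 0 was taken as 100 reads or fewer, which is 0.00263 to 0.00695% of a library. A barcode listed at 0 can therefore still be present below that level. Shares are relative, and where one group takes most reads all other shares are low whether or not their cells became fewer.

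The read overlap of the lineages, which is the sum over barcodes of the smaller of the 2 shares, was low at day 32, high at day 119, low again at days 187 and 266, and high from day 365 on. It was 31.6% at day 32, where it rests on counting a listed 0 as absent: with each such 0 set to 100 reads, the most it can hold, the day 32 overlap was 77.5%. At day 119 the overlap was 77.5%, and 81.1% with the zeros so set. It was 49.7% at day 187 and 50.4% at day 266, and 58.2% on both days with the zeros so set. It then stood at 92.7% on day 365, 93.9% on day 494 and 96.7% on day 553. Over the 7 days the overlap rose with day (Spearman's rho = 0.893, two-sided exact permutation p = 0.0123, 0.0246 after Benjamini-Hochberg adjustment over 2 trends). Pearson's r was 0.817 (exact permutation p = 0.0375, adjusted 0.075) and 0.614 without days 32 and 553, so the linear relation missed the adjusted threshold. With the barcodes of group 1 taken out and the other reads rescaled, rho was 0.679 (exact permutation p = 0.11), and with each listed 0 set to 100 reads it was 0.714 (exact permutation p = 0.0881). Without day 32, 365, 494 or 553 it was 0.829 (exact permutation p = 0.0583 each), so the call needs all of these days. The permutation takes the days as independent, which serial samples of 1 animal are not.

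**Figure D1:**
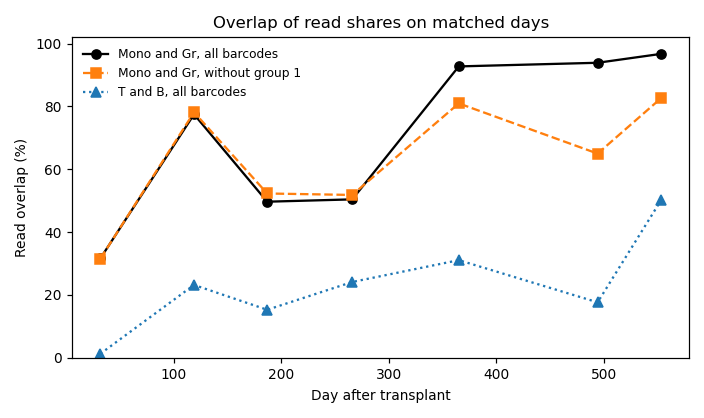
Read overlap (% of reads, vertical axis) against day after transplant for Mono with Gr, Mono with Gr without group 1, and T with B, each point 1 pair of libraries of the same day. Mono and Gr with all barcodes move from 31.6% at day 32 through a dip to 49.7% at day 187 to 96.7% at day 553, above T with B on each of the 7 days.

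The barcodes outside group 1 gave an overlap of 78.1% at day 119, 52.3% at day 187 and 51.8% at day 266, so the dip was there without group 1 too. On the later days they gave 80.9, 65.0 and 82.6%. Few reads lay behind these last values: 8.32% in each lineage at day 365, 0.0810% (Mono) and 5.92% (Gr) at day 494, and 0.151 and 0.211% at day 553. The 6 barcodes of group 1 made up 86.0 of the 92.7% overlap at day 365, where bc11 added 6.47%, and 93.8 and 96.6% of reads at days 494 and 553.

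Similarity was higher between the myeloid pair than between the lymphoid pair, T and B, which serve as a comparison made from separate libraries. The overlap averaged 70.3% ± 26.2 (SD, n = 7 days) for Mono with Gr and 23.2% ± 15.1 (SD, n = 7 days) for T with B. Mono with Gr was higher on 7 of 7 days, by 26.3 to 76.2 percentage points (mean 47.1, SD 18.2; two-sided exact sign-flip permutation p = 0.0156, the smallest that 7 days can give). With each 0 at 100 reads the mean gap was 27.8 points, with the same exact permutation p. This test also takes serial days of 1 animal as independent, which they are not. Pairs of 1 myeloid and 1 lymphoid lineage came nearer to Mono with Gr on the days of the dip than at day 119. Those with B were nearer at day 32 too, at 20.3% (Mono) and 20.4% (Gr), beside 31.6% for Mono with Gr. At day 119 Mono with T was at 37.0% and Gr with T at 39.5%, beside 77.5% for Mono with Gr. At day 187 Mono with T was at 47.8%, beside 49.7% for Mono with Gr. Gr with T was at 36.9%, Gr with B at 29.5% and Mono with B at 17.9%. At day 266 Gr with B was at 38.9% and Mono with T at 37.2%, beside 50.4% for Mono with Gr. Mono with B was then at 30.0% and Gr with T at 29.2%.

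On day 32 the lineages drew on long lists of rare barcodes, of which a minority was listed in both. Mono listed 10210 barcodes and Gr 8820, and 3286 were listed in both, which is 32.2% of the Mono list (95% Clopper-Pearson interval 31.3 to 33.1%) and 37.3% of the Gr list (36.2 to 38.3%). When only 0.01% or more counted as present, these were 28.9 and 22.2%. The shared barcodes held 38.7% of Mono and 42.3% of Gr reads. The B library of day 32 listed 3356 barcodes of the Mono list (32.9%) and 3073 of the Gr list (34.8%). The T library listed 1.28 and 1.39% of them. Sharing by list was thus not particular to Mono with Gr on that day. Intervals cover only the error of counting, and reads made by PCR and not marked by molecule are not independent.

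Sharing at day 32 was more frequent among the more abundant barcodes. Of Mono barcodes below 0.01% of reads, 1848 of 6963 (26.5%) were listed in Gr. Between 0.01 and 0.02% the share was 41.5%, and between 0.02 and 0.05% it was 210 of 330 (63.6%). At 0.05% or more, 37 of 45 Mono barcodes (82.2%, interval 67.9 to 92.0%) were listed in Gr. In the other direction 25 of 26 Gr barcodes at 0.05% or more (96.2%, interval 80.4 to 99.9%) were listed in Mono, against 30.1% of those below 0.01%. Listing in B rose with abundance as well, from 30.7% of Mono barcodes below 0.01% to 51.1% at 0.05% or more. For Gr barcodes it rose from 31.0 to 53.8%. At 0.05% or more these shares were below those of the myeloid pair. A barcode near 100 reads can drop under the listing limit in the other library, so the low shares among rare barcodes are lower bounds on sharing.

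Listed in both did not mean equal in both. Over the 3286 shared barcodes of day 32, log2 shares correlated at r = 0.363 across barcodes, which are not independent and are cut at the listing limit. Most of them, 2686 (81.7%), were within 2-fold, and of those over 2-fold apart 5.33% of the shared list was higher in Mono and 12.9% in Gr. Among the 43 shared barcodes at 0.05% or more in either library, 17 (39.5%) were over 2-fold higher in Mono, 8 (18.6%) over 2-fold higher in Gr, and 18 within 2-fold.

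The most abundant barcodes of day 32 were small and differed by lineage. In Mono they were bc33 at 0.157%, bc51 at 0.151% and bc39 at 0.150%. In Gr they were bc22 at 0.240%, bc27 at 0.217% and bc29 at 0.138%, the 3 members of group 7. Only 3 of the 10 most abundant barcodes of each library were the same. Group 7 as a whole took 0.595% of Gr but 0.212% of Mono, and 3 of 3 members were higher in Gr. Group 8, 5 barcodes that include bc51, took 0.594% of Mono but 0.168% of Gr, and 5 of 5 members were higher in Mono. Of all 3286 shared barcodes of that day, any size of difference counted, 36.5% were higher in Mono and 63.5% in Gr.

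The largest ratios at day 32 belonged to barcodes with little later history in these lineages. bc3539 was at 0.0945% in Mono and listed at 0 in Gr, at least 13.6-fold higher. bc3779 and bc4278 were at least 12.6-fold and at least 10.6-fold higher in Mono. None of these 3 was listed again in Mono or Gr on the 6 later days. Toward Gr, bc4298 was at least 9.85-fold higher, bc5635 7.47-fold and bc695 5.11-fold. bc4298 returned at 0.00607% in Gr on day 187, and bc695 was at or below 0.0148% in either lineage after day 32.

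**Figure D2:**
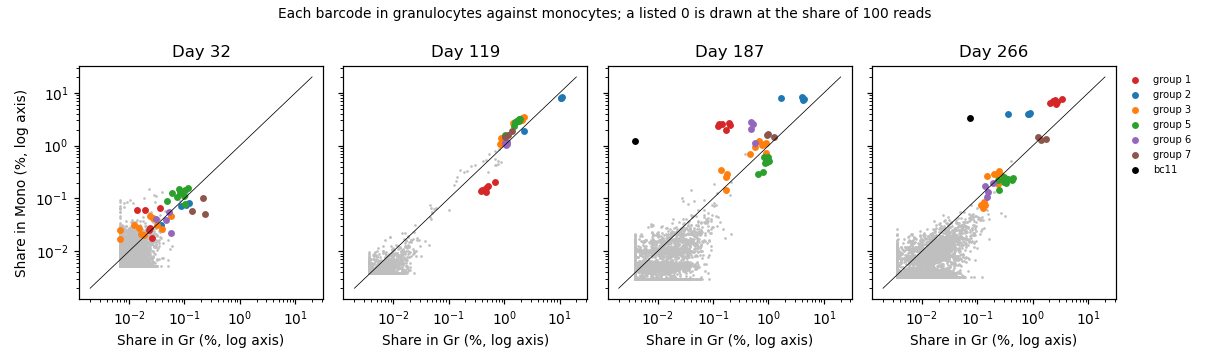
Share of each barcode in Mono (%, vertical log axis) against Gr (%, horizontal log axis) on days 32, 119, 187 and 266, with grouped barcodes in colour, others in grey, a line of equality and a listed 0 drawn at the share of 100 reads. Group 1 lies below the line at day 119 and above it at days 187 and 266, and the grey barcodes reach further toward Gr on days 187 and 266.

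Barcodes listed in both lineages at day 32 were listed later more often. Of the 3286 shared barcodes 937 (28.5%, interval 26.98 to 30.1%) were listed in Mono or Gr on a later day, against 1457 of 6924 in Mono alone (21.0%, interval 20.1 to 22.0%) and 800 of 5534 in Gr alone (14.5%, interval 13.5 to 15.4%). They held most reads at day 119, with 87.3% in Mono and 79.9% in Gr. Their share was 74.9% (Mono) against 42.9% (Gr) at day 187, then 70.1 against 38.4% at day 266. Barcodes listed in neither library at day 32 made up 36.5% of Gr against 15.8% of Mono at day 187, then 40.0 against 20.7% at day 266. The shared barcodes were also the more abundant ones at day 32, and the part of abundance in their later listing was not tested. From day 365 on the day 32 shared class, which includes group 1, held 91.9 to 99.9% of reads in both lineages.

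On day 119 the lineages were nearly alike in their leaders. The 10 most abundant barcodes of each had 9 in common, and bc7, bc8 and bc9 led both, at 8.26, 7.98 and 7.92% in Mono and 11.1, 10.7 and 10.5% in Gr. Of 64 barcodes at 0.05% or more in either library and listed in both, 1.56% were over 2-fold higher in Mono and 9.38% over 2-fold higher in Gr. Over all 617 barcodes listed in both, these shares were 0.972 and 20.1%. Among barcodes of 0.5% or more in either library, the largest ratios toward Mono were 1.83-fold for bc31, 1.77-fold for bc38 and 1.72-fold for bc20. At the same limit those toward Gr were 3.38-fold for bc1, 2.97-fold for bc4 and 1.79-fold for bc68, and the other 4 members of group 1 were below 0.5% in both.

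Although nearly alike, the day 119 libraries differed in the shares of several groups. All 9 members of group 5 were higher in Mono, by 0.73 ± 0.06 on the log2 scale (mean and SD over members), and all 11 of group 3 by 0.56 ± 0.19. All 4 of group 2 were higher in Gr, by a log2 Mono over Gr of -0.37 ± 0.09, and all 6 of group 1, at -1.59 ± 0.15. All 3 members of group 7 and all 5 of group 8 were higher in Mono, while group 6 had 2 members higher in Mono and 2 in Gr. Of all 617 barcodes listed in both libraries 24.5% were higher in Mono and 75.5% in Gr. Members of a group were chosen for moving together in all libraries, these 14 included, and are not replicates of the difference. That choice favours members that go the same way, so their agreement is not a separate result.

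Group 1, which later held over 90% of reads in both lineages, was the higher in Gr at day 119 and the higher in Mono at day 187. Its summed share at day 119 was 0.952% in Mono against 2.90% in Gr. The day 187 libraries had 14.6% (Mono) against 0.960% (Gr), and those of day 266 had 41.1 against 15.6%. Of all barcodes listed in both libraries, 21% were higher in Mono at day 187 (79% in Gr), and 17.1% at day 266 (82.9% in Gr). The log2 ratio of Mono to Gr over its 6 members was 3.95 ± 0.35 at day 187 and 1.41 ± 0.20 at day 266, higher in Mono for 6 of 6 members on both days. From day 365 on it was near 0, at -0.03 ± 0.27, 0.08 ± 0.07 and 0.01 ± 0.11.

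The day 119 lead of Gr and the day 187 lead of Mono were seen in each barcode of group 1. bc1 was at 0.0650, 0.201, 2.72, 7.49, 16.3, 19.2 and 18.6% in Mono on the 7 days in order. In Gr bc1 was at 0.0358, 0.678, 0.195, 3.2997, 16.7, 17.8 and 20.8%. The Gr series of bc1 was thus lower at day 187 than at day 119, while the Mono series was higher. At day 32 the members did not go one way: the log2 ratio was 0.72 with an SD of 1.00 over the 6, and 5 of 6 were higher in Mono. Within the group, bc1, bc2 and bc3 led or nearly led in both lineages late, and bc1 was the most abundant barcode of both at days 494 and 553, while bc2 was at day 365 with 19.7% in Mono and 17.1% in Gr. bc4 was among the 3 highest of Mono at day 365 (16.6%) and of Gr at day 266 (2.66%), where bc6 also ranked (2.74%).

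By straight lines between sampled days, group 1 passed 10% of reads at day 164 in Mono and day 236 in Gr, a gap of 71.9 days. It passed 50% at day 283 in Mono and day 311 in Gr, a gap of 27.4 days. At 90% the gap was 1.10 days. These days lie between samples taken 68 to 99 days apart, so they are only interpolations, and interpolation on the log scale gave 75.9 and 41.0 days for the gaps at 10 and 50%.

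**Figure D3:**
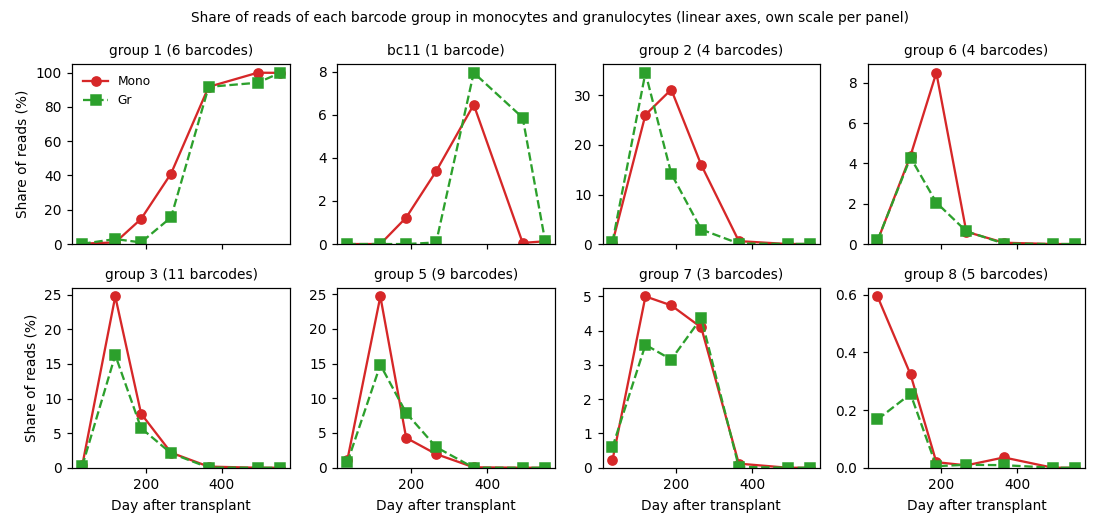
Summed share (% of reads, vertical axis) of the barcode groups and bc11 against day after transplant, in Mono and in Gr, 1 library per point. Group 1 is at 14.6% in Mono and 0.960% in Gr on day 187 and at 99.8% in both on day 553, and group 2 is at 16.0% in Mono and 2.94% in Gr on day 266.

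Of the 38 barcodes that reached 1% of reads in Mono or Gr, 33 did so in both. 26 reached it on the same sampled day, 7 in Mono first and 0 in Gr first. The 7 were bc1 to bc6 (day 187 in Mono, day 266 in Gr) and bc11 (day 187 and day 365). The other 5, bc24, bc42, bc43, bc45 and bc46 of group 3, passed 1% in Mono alone, with a highest Gr share of 0.856 to 0.976%, just under the limit. As group 1 moves as a unit, 7 barcodes are not 7 separate cases, and the order depended on the threshold: at 0.5%, bc1 and bc4 came first in Gr, and at 2%, bc10 came first in Gr.

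bc11 was the barcode with the longest lead in Mono. It was listed at 0 in both lineages on days 32 and 119. In Mono it was then at 1.23, 3.38, 6.47, 0.0525 and 0.130% on days 187 to 553. In Gr it was listed at 0 on day 187 and then stood at 0.0738, 7.95, 5.86 and 0.151%. bc11 was therefore at least 318-fold higher in Mono at day 187, 45.8-fold higher in Mono at day 266, at 6.47% against 7.95% in Gr at day 365, and 112-fold higher in Gr at day 494. It was the main difference between the lineages on day 494: Mono held 99.9% of its reads in group 1, and Gr 94.1%. Its share-weighted mean day was 319 in Mono and 420 in Gr. In other cells it was also listed. In nRBC it was at 0.483% on day 266, 6.09% on day 309 and 0.0463% on day 494. In T its highest share was 1.03%, on day 365, and in B it was 1.09%, on day 266. By day 494 it was at 0.190% in T, 0.271% in B and 0.0724% in EOS, and CD34p of day 553 held 0.133%.

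Group 2, the leader of day 119, was higher in Mono than in Gr on days 187, 266 and 365, and lower on the other 4 days. It was at 26.1% in Mono and 34.6% in Gr on day 119, 31.2 and 14.2% on day 187, and 16.0 and 2.94% on day 266. All 4 members were higher in Mono on both later days, by a log2 ratio of 1.23 ± 0.69 and 2.53 ± 0.65. On day 365 it was at 0.593% (Mono) and 0.109% (Gr). On days 494 and 553 its listed shares lay near the listing limit, at 0.00485% in Mono against 0.0168% in Gr, then 0.0103% in Mono against 0.0239% in Gr. At day 494 only 1 of the 4 members was listed in Mono. There 100 reads were 0.00471%, more than the Gr share of each member, so members listed at 0 could be as high in Mono. Its share-weighted mean day was 181 in Mono and 146 in Gr. bc7, bc8 and bc9 still ranked as the top 3 of Gr on day 187, at 4.10, 4.31 and 4.17%, although their Mono shares were higher, at 8.23, 7.75 and 7.34%.

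Within group 2, bc10 stood below the other 3 on days 32 and 119 in both lineages, and on days 187 and 266 in Gr but not in Mono. It was set against the mean of bc7, bc8 and bc9, a ratio chosen after its values were seen. On day 32 the ratio was 0.403 (Mono) and 0.368 (Gr), and on day 119 it was 0.239 and 0.212. It was 1.02 in Mono on days 187 and 266, but 0.393 and 0.414 in Gr. From day 365 Gr was also near 1, at 1.02, 1.01 and 1.15, and Mono was at 1.37 on day 365. The T libraries were at 0.127 on day 119, 0.954 on day 187 and 0.956 on day 266. The B libraries were at 0.197, 1.09 and 0.728 on these days. In nRBC of day 266 the ratio was 0.483, with bc10 at 0.0162% of reads, so a low ratio on that day was not particular to Gr. bc10 itself was 11.4-fold higher in Mono than Gr at day 266 (4.05 against 0.356%), beside 4.70-fold for bc9 (3.89 against 0.829%).

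**Figure D4:**
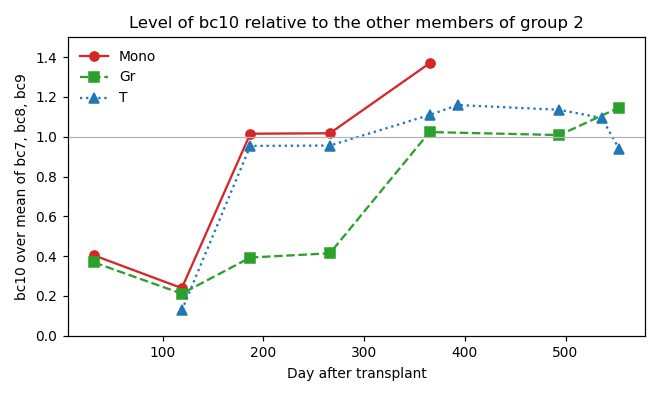
Ratio of the share of bc10 to the mean share of bc7, bc8 and bc9 (vertical axis, no unit) against day after transplant in Mono, Gr and T, 1 library per point. On day 187 Mono and T are at 1.02 and 0.954 and Gr is at 0.393, on day 365 Gr is at 1.02 and Mono, at its last point, at 1.37.

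The other groups differed in which lineage held more of them on days 187 and 266. Group 5 was at 24.7% in Mono and 14.8% in Gr on day 119, then at 4.30 and 7.89% on day 187 and 1.97 and 2.97% on day 266. Its 9 members were all higher in Mono on day 119 and all higher in Gr on days 187 and 266. Their log2 Mono over Gr was -0.90 ± 0.25 at day 187 and -0.58 ± 0.29 at day 266. Of all barcodes listed in both libraries, 75.5% (day 119), 79% (day 187) and 82.9% (day 266) were higher in Gr. Their median log2 Mono over Gr was -0.77 at day 187 and -0.87 at day 266, so the Gr side of group 5 was that of most barcodes. The largest ratios toward Gr among barcodes of 0.5% or more at day 187 were members of group 5, bc40 at 2.46-fold, bc44 at 2.21-fold and bc39 at 2.04-fold. At day 365 group 5 was higher in Mono again, at 0.0641% with 8 of 9 members listed, against 0.0034% in Gr with 1 listed. Of the 41 barcodes listed in both at day 365, 85.4% were higher in Mono. Groups 1 and 5 thus lay on opposite sides on both days 119 and 187, and most barcodes listed in both lay on the Gr side on these days.

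Group 3 was at 24.8% in Mono and 16.3% in Gr on day 119, 7.82 and 5.73% on day 187, and 2.18 and 2.10% on day 266. At day 365 it was at 0.165% in Mono against 0.0233% in Gr. Group 6 was level at day 119 (4.39 and 4.29%) and at day 266 (0.612 and 0.636%), but stood at 8.51% in Mono and 2.06% in Gr on day 187, with 4 of 4 members higher in Mono. Group 7 was at 4.74 and 3.16% on day 187 and 4.09 and 4.37% on day 266. On day 266, 15 barcodes were at 0.5% or more in either library. Its members bc22 and bc27, at 1.28-fold and 1.10-fold, were the only ones of them that were higher in Gr. The other 13 were higher in Mono, and a barcode could enter the 15 through the lineage where it was high. By days 494 and 553 groups 3, 5, 6, 7 and 8 were listed at 0 in both lineages.

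No group passed the test of a mean difference between the lineages over the 7 days, and the test could not have called one. In 9 exact sign-flip permutation tests the lowest adjusted p was 0.469. For a single group, 7 days and 9 tests allow an adjusted p of 0.141 at the lowest. A day listed at 0 in both lineages adds nothing to the test. Groups 3, 5, 6, 7 and 8 and bc11 each had 2 such days, so their exact permutation p could not fall below 0.0625. Even with all groups at their lowest p, none would pass 0.05 after adjustment, so the test left the question undecided. Group 1 averaged 6.18 percentage points more in Mono (SD 10.1, exact permutation p = 0.156) and group 2 averaged 3.13 more (SD 8.78, exact permutation p = 0.375). Group 3 came nearest, at 1.56 more in Mono (SD 3.14), higher in Mono on 5 days and listed at 0 in both on the other 2 (exact permutation p = 0.0625). Differences of opposite sign on different days, as in groups 1, 2 and 5, offset each other in a mean over days.

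Single barcodes gave no call either. edgeR's quasi-likelihood test with day as a block, over the 155 barcodes with at least 0.05% in 2 or more of the 14 libraries, called 0 (0%), with 0 at an unadjusted p under 0.05. DESeq2 also called 0, with 1 at an unadjusted p under 0.05. The term for a lineage difference that changes with day called 0 of 155 (0%) in edgeR, where 4 had an unadjusted p under 0.05. DESeq2 called 0, and 1 had an unadjusted p under 0.05. Without day 119 edgeR called 1 barcode, bc11, whose log2 Mono over Gr fell by 4.90 per 100 days (adjusted p = 0.012). Over all 20247 listed barcodes with no filter this term called 487, of which 217 had the higher slope in Mono. Only 4 of the 487 were among the 155, and the 487 were listed in a median of 2 of the 14 libraries. The model takes the libraries as independent, which serial samples of 1 animal are not.

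The dip in overlap at days 187 and 266 went with a long list of small barcodes in Gr. The barcodes outside the 51 that ever reached 1% held 13.8% of the Mono library and 23.3% of the Gr library at day 119. Their part was 27.5% (Mono) and 66.0% (Gr) at day 187, then 30.7 and 71.3% at day 266. Of them, 129 were at 0.05% or more in Gr at day 187 and 164 at day 266, against 19 and 12 in Mono. Of all barcodes at 0.05% or more in either library and listed in both, 59.6% were over 2-fold higher in Gr on day 187 and 59.1% on day 266, and 9.94 and 5.7% were over 2-fold higher in Mono. With no limit on size, 41.8% (day 187) and 44% (day 266) of the barcodes listed in both were over 2-fold higher in Gr, and 3.57 and 3.33% in Mono. In contrast, 25 of the 35 barcodes at 0.5% or more in either library were higher in Mono at day 187. A barcode could enter these 35 through the lineage where it was high, and members of a group are not separate cases. That count is therefore only a description. By reads, the barcodes outside the 51 were the smaller part of Mono and the larger part of Gr on both days.

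The small Gr barcodes were mostly the same on both days and mostly listed in Mono too. 91 of them reached 0.05% in Gr on both days 187 and 266, a set chosen for its Gr level. They held 7.36 and 8.39% of Gr reads and 3.26 and 3.22% of Mono reads, and 88 and 87 of the 91 were listed in Mono. At day 119 the same 91 held 3.57% of Gr and 3.69% of Mono reads. In B they held 1.81 and 1.95% of reads on days 187 and 266, and 82 of the 91 were listed there on each day. In T they held 2.35 and 2.40% of reads, with 38 and 65 listed. Over all barcodes outside the 51, with reads rescaled, the overlap on days 187 and 266 was 48.8 and 56.5% for Mono with Gr and 30.9 and 33.2% for Gr with B. It was 24.7 and 31.2% for Mono with B. The part of other cells in these Gr libraries was not tested.

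Setting each Mono library against every Gr library showed which days were most alike. The Mono library of day 187 overlapped more with Gr of day 119 (57.8%) than with Gr of its own day (49.7%) or of day 266 (45.7%). Without group 1 the order was the same, at 61.9, 52.3 and 37.3%. For day 266, Mono overlapped most with Gr of day 266 (50.4%), and Gr of day 187 gave 44.9%, but without group 1 the order turned, at 51.8 and 57.7%. At days 32, 119, 365 and 553 the Gr library of the same day was the nearest, and Mono of day 494 was nearest to Gr of day 553, at 97.0%. A single library per day gives no error for these differences, and they are a description.

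**Figure D5:**
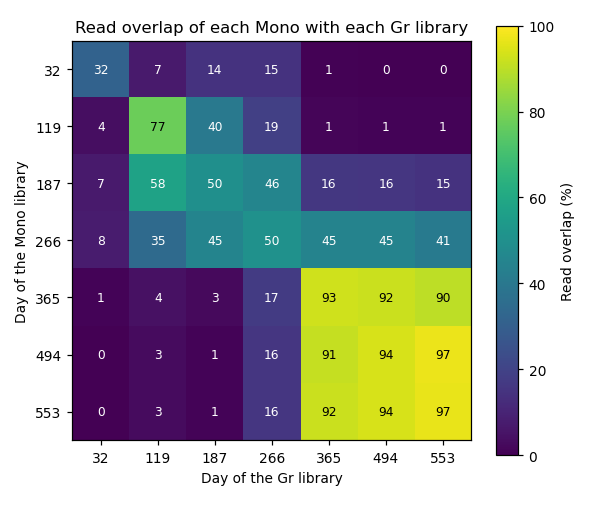
Read overlap (%, colour and number in each square) of each Mono library (vertical axis, by day) with each Gr library (horizontal axis, by day). Same-day squares run from 31.6% at day 32 to 96.7% at day 553, and the row of Mono day 187 is highest at Gr day 119, at 57.8%.

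By presence alone the trend missed the threshold with every listed barcode counted, and passed it when only 0.01% or more counted as present (rho = 0.955, exact permutation p = 0.00397). Of barcodes listed in either library, the percent listed in both was 20.9, 28.0, 36.1, 43.4, 18.2, 41.7 and 63.2 on the 7 days in order (rho = 0.571, exact permutation p = 0.2, adjusted 0.2). Day 365 stood low: Mono listed 197 barcodes and Gr 69, with 41 in common, yet these 41 held 99.2% (Mono) and 99.9% (Gr) of the reads. Of the 41, 85.4% were higher in Mono and 14.6% in Gr. Without day 365 rho was 0.943 (exact permutation p = 0.0167). The lists shrank to 12 in Mono and 22 in Gr at day 494, with 10 in common, and to 13 and 18 at day 553, with 12 in common.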

How the data were processed

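Barcodes were amplified from 200 ng of DNA by PCR over 28 cycles, per the labels' protocols. The authors deposited 1 table of whole-number read counts, 44423 sequences of 50 bases in 38 libraries. The sequencer, the program that counted barcodes and the reason that no count lies between 1 and 100 were not given in the sources used here.

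Counts were divided by the column sum of the library. Groups were formed among the 51 barcodes that reached 1% in some library, from Pearson's r of log2(percent + 0.01) over the 38 libraries, by complete linkage at r of 0.95. A fold against a listed 0 was taken against 100 reads in that library. Days were the unit of the exact permutation tests (two-sided), which take them as independent, although they are serial samples of 1 animal. Single barcodes were tested with edgeR 4.0.16 on the deposited counts, scaled by column sums, with day as a block, and called at a Benjamini-Hochberg adjusted p under 0.05. DESeq2 1.42.0 was the alternative. Day pairs the libraries, since both come from the same animal on the same day. On simulated counts for 155 barcodes, edgeR recovered 39 of 39 8-fold changes with 3 false calls at a dispersion of 0.1. At a dispersion of 1 it recovered 22 of 39 with 1 false call. Each simulated barcode kept the same mean share and the same direction of change on all days, and counts were not cut at 100 reads. Recovery for shares that change from day to day, as in these libraries, was not measured. Other tools were Python 3.11.15, scipy 1.17.1 and R 4.3.3.

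The text names barcodes of groups that reached 5% in Mono or Gr and the 3 most abundant in each library. Up to day 266 it also names the 3 with the largest ratio each way at 0.5% or more in either library (0.05% at day 32). Outside this rule, barcodes that passed 0.5% in a single lineage are named in the closing section. Libraries, groups and lists were chosen with earlier results of these data known.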

Additional observations from a re-analysis of the deposited data

Results flagged for a closer look

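In 9 of 31 series of 7 days, 1 day lay apart from the rest, its gap to the next day divided by the whole range, being above Dixon's 95% critical value for 7 values. Chance gives such a gap in about 1 in 20 groups of replicates, and serial days are not replicates, so these are descriptions of single days.

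Day 119 was the highest day for 6 of the 9 series. Group 2 stood at 34.6% in Gr then, and its next highest day was 14.2%. Group 3 stood at 24.8% in Mono and 16.3% in Gr, with a Mono minus Gr difference of 8.48 percentage points. Group 5 stood at 24.7% in Mono, with a difference of 9.84 points. The difference was counted apart from the shares it is made of, so these are not separate cases.

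The other 3 fell on 3 days. Group 6 had a Mono minus Gr difference of 6.45 points at day 187, beside 0.0921 on its next highest day. Group 8 had a difference of 0.427 points at day 32. Group 4, 7 barcodes with at most 0.0389% in Gr, stood at 0.0940% in Mono at day 365.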

How the results depend on the processing

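Over 96 alternative settings, 75 kept the direction and the side of the threshold (or stayed within 1.5 times of a count). The 75 include settings that merged alike sequences, where 0 barcodes merged and the outcome was fixed. They also include all 10 of the group test, whose reported form could not have passed. The overlap trend (rho 0.893) kept its direction but missed the threshold without group 1 (0.679) and with each 0 at 100 reads (0.714). Leaving out 1 day gave 0.829 to 1, and without day 32, 365, 494 or 553 the exact permutation p was 0.0583. The shared list trend passed when at least 0.01% counted as present (0.955, exact permutation p = 0.00397), and leaving out 1 day gave 0.314 to 0.943. The gap to the T and B overlap ran from 42.3 to 50.6 points without 1 day and was 27.8 with each 0 at 100 reads. The lineage test called 0 with no replicate block and 0 without any 1 day. The test by day called 487 over all barcodes and 0 to 1 without 1 day (bc11 without day 119). For day 32, counting only 0.01% or more as present gave 28.9% of the Mono list and 22.2% of the Gr list. First days moved with the threshold. At 0.5%, 2 barcodes were first in Gr, 2 passed in Mono alone (bc54 and bc57) and 5 in Gr alone (bc68, bc71, bc72, bc75 and bc84). At 2%, 1 was first in Gr, 13 passed in Mono alone and 8 on the same day. At 0.1%, added after seeing the data, 6 were first in Gr, 21 passed in Gr alone and 51 on the same day. Merging sequences within 1 mismatch changed nothing, since there were none. The cause of these moves was not tested. Depth limits the rare barcodes: a level under 100 reads is not seen, and each day is 1 library.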
